A study of Mus musculus with 61 samples.

Results

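The genes described here are those whose level separated every Del(CBS1-5) and Del(sub-TAD1) library from every library of the other mutant lines. They were chosen from FPKM values (fragments mapped to a gene, scaled to transcript length and to the mapped fragments of the library) on the log2 scale after adding 0.1 FPKM, with the lowest value of one group more than 1 above the highest value of the other. The rule kept 56 of the 55052 genes of the table, which is 0.102% of them, 38 being higher (0.069%) and 18 lower (0.0327%) in Del(CBS1-5) and Del(sub-TAD1). The values of these mutant libraries therefore chose the members and are given as a description, whereas the wt libraries took no part in the choice.

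Stembryos are aggregates of mouse embryonic stem (ES) cells that elongate in culture and switch on Hox genes in sequence, and each RNA-seq library was made from a pool of them. All lines received the same pulse of a Wnt agonist, and stages are given in hours after aggregation. The first group held 11 libraries, 6 of Del(CBS1-5), which lacks CTCF binding sites of the HoxD cluster, at 96, 120 and 144 h, and 5 of Del(sub-TAD1), which lacks a chromatin domain beside HoxD, at 96 and 120 h. Per the study's methods both lines were derived from mouse blastocysts, from animals kept on a mixed BL6 and CBA background, and the Del(sub-TAD1) mice also carried a transgene covering Mtx2. The second group held 24 libraries of 6 lines, Del(CBS1), Del(CBS1-2), Del(CBS2), Del(CBS4), Del(d1-d4) and Ins(2xCBS-d4d8), edited by CRISPR in cultured 129/SVEV ES cells and grown from picked clones, mostly at 96 and 120 h. Del(CBS1-2) was made in the Del(CBS1) line. The 26 wt libraries, labelled only as wt mES cells, comprised 16 of a time course from 72 to 168 h and 10 outside it at 96, 120 and 144 h. Deletion, origin of the line and genetic background changed together between the 2 mutant groups and cannot be told apart.

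ES cell lines taken from different inbred mice differ in gene and pseudogene copies, in retroviral insertions and in promoter variants, so that a transcript can be present in one line and missing in another regardless of any engineered deletion. Lines also differ in how far germline genes, which DNA methylation keeps silent in somatic cells, escape that silencing in culture.

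Gm42047, an intergenic noncoding RNA on chromosome 8 (121833247 to 121841178, mm10, plus strand), had the widest separation, 7.43 on the log2 scale. Its FPKM in Del(CBS1-5) was 74.9 and 69.4 (96 h), 65.5 and 79.8 (120 h) and 74.9 and 72.3 (144 h), and in Del(sub-TAD1) 33.6, 85.5 and 76.7 (96 h) and 64.3 and 64.2 (120 h). The 24 other mutant libraries ranged from 0 to 0.0959 FPKM with a median of 0.0374 FPKM. Every library of the first group was thus high and every library of the second at background level, the value in the first resting on 1327 to 1999 fragments. Fabp3 (chromosome 4, 130308595 to 130315463, plus strand), which encodes the fatty-acid binding protein of heart and muscle, ranged from 6.66 to 20.5 FPKM with a median of 9.46 FPKM and was listed at 0 in the other 24 libraries. Tceanc2 (chromosome 4, 107134155 to 107179116, minus strand) was at 3.18 to 4.11 FPKM against a listed 0 in the other 24 libraries. St6galnac2, a sialyltransferase gene on chromosome 11, ranged from 0.689 to 3.37 FPKM and was likewise listed at 0 in the other lines.

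**Figure D1:**
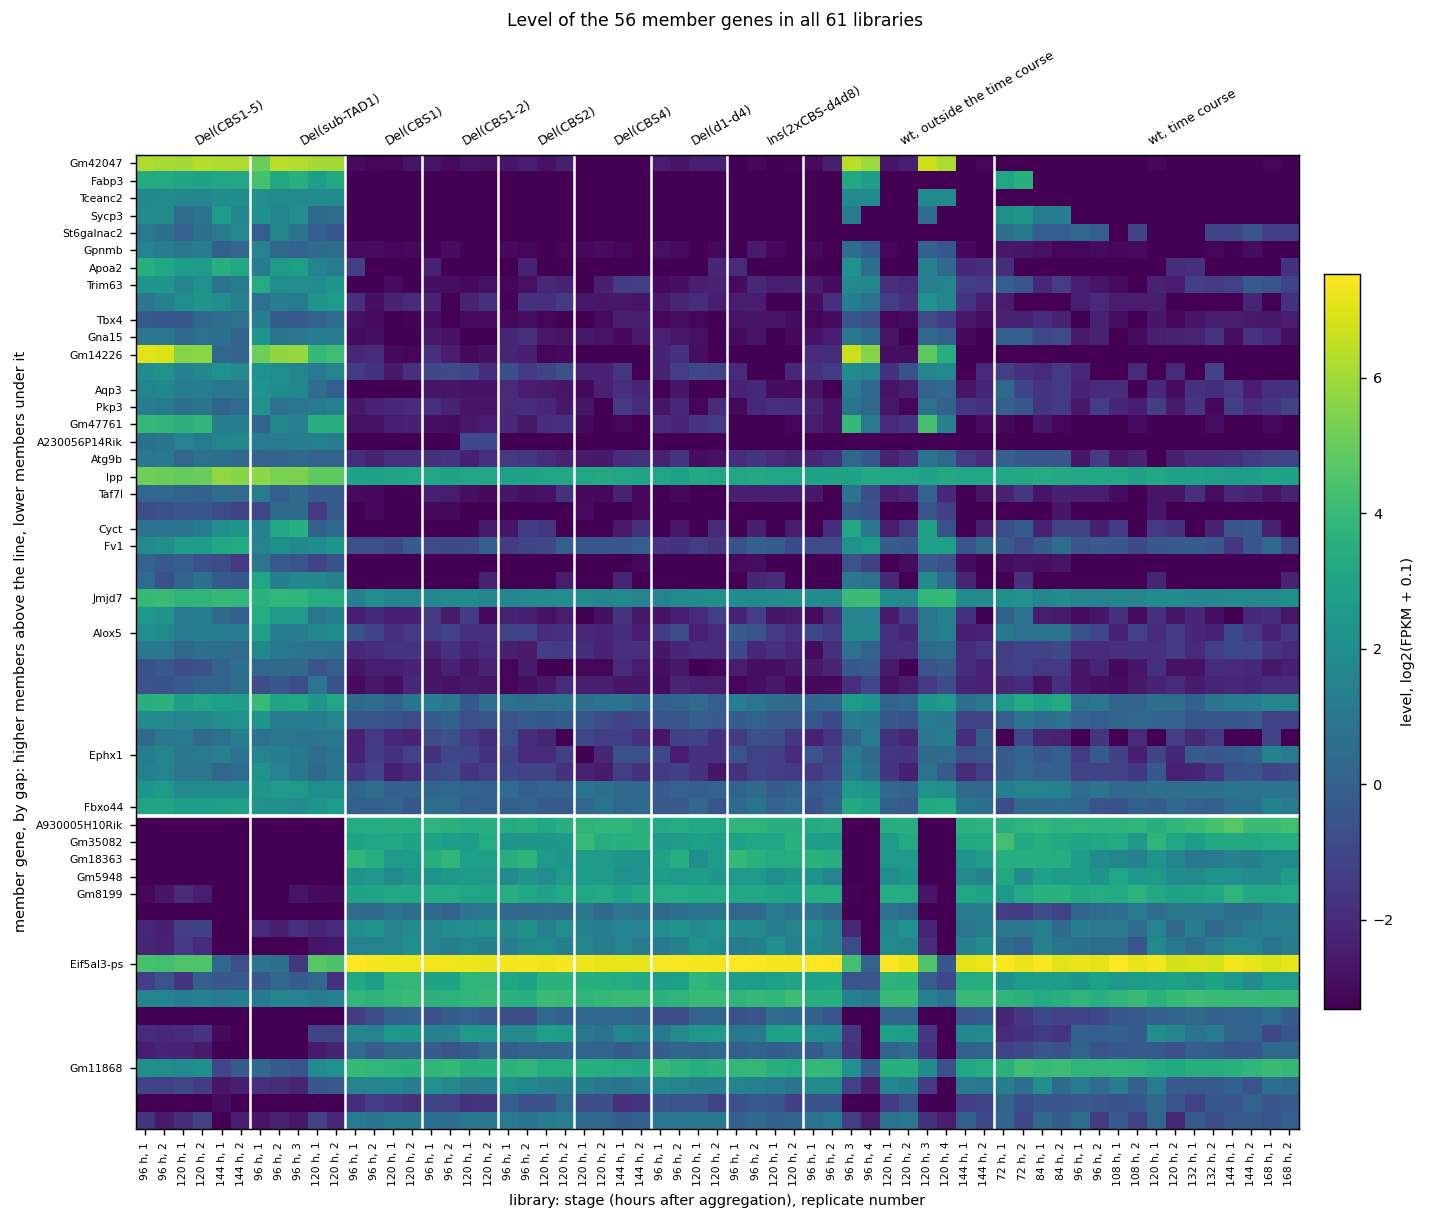
Level of each of the 56 members (rows, log2(FPKM + 0.1) by colour, a selection of those described in the text being labelled) in each of the 61 libraries (columns, grouped by line and ordered by stage and replicate). The 11 Del(CBS1-5) and Del(sub-TAD1) columns differ from the 24 columns of the other mutant lines in every row, as the rule requires, and the wt columns of replicates 3 and 4 at 96 and 120 h carry the same pattern in most rows.

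Both members on the germline list were among the higher ones. Sycp3, a component of the synaptonemal complex of meiosis, had FPKM values in Del(CBS1-5) of 3.52 and 3.52 (96 h), 1.34 and 1.66 (120 h) and 5.92 and 2.94 (144 h). In Del(sub-TAD1) they were 4.29, 2.90 and 4.03 (96 h) and 1.26 and 1.37 (120 h), and the gene was listed at 0 in all 24 other mutant libraries. The 4 libraries at 120 h were the lowest of the 11. Taf7l, a germ-cell relative of a general transcription factor subunit, ranged from 0.769 to 2.18 FPKM against 0 to 0.19 FPKM. Cyct, the testis form of cytochrome c, ranged from 0.94 to 11.5 FPKM against 0 to 0.266 FPKM and was the only member within 2 Mb of the HoxD cluster, at 1.59 Mb from it on chromosome 2.

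The promoters shown are those of both members of the germline list, of Ipp, which was high in Del(CBS1-5) and Del(sub-TAD1) alone, and of A930005H10Rik, the member with the widest separation in the other direction. Each is the 250 bases before the RefSeq start (GRCm38.p6, written 5′ to 3′ on the gene's strand, CG in capitals), at chr10:88459337-88459586 on the plus strand for Sycp3, chrX:134476491-134476740 on the minus strand for Taf7l, chr4:116507299-116507548 on the plus strand for Ipp and chr3:115888131-115888380 on the minus strand for A930005H10Rik. The Sycp3 window runs slightly into the gene as the files annotate it.
Sycp3: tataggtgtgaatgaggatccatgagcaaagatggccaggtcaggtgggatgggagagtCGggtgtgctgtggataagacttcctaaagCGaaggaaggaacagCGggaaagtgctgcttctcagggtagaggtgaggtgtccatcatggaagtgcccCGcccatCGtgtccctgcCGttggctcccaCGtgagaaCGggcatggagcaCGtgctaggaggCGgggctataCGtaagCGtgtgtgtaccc
Taf7l: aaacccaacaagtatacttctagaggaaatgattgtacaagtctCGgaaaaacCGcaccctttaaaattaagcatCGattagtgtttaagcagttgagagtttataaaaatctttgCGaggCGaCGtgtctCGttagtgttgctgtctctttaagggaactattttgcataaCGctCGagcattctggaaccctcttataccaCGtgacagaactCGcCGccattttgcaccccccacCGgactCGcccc
Ipp: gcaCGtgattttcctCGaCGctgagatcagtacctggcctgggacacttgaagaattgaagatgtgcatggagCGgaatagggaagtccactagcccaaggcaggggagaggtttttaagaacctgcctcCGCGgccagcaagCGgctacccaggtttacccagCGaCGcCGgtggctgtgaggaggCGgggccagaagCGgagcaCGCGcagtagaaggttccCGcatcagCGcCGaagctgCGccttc
A930005H10Rik: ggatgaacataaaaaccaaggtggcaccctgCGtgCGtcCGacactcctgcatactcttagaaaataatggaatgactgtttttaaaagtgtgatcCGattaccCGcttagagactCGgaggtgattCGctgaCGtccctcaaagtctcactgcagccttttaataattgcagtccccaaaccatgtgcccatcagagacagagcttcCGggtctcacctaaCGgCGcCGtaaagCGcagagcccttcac

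These windows held 12, 14, 18 and 13 CG dinucleotides, in the order printed. A RefSeq promoter was found for 25 of the 38 higher and 4 of the 18 lower members. The median number of CG dinucleotides in 250 bases was 10 for the higher members, 7 for the lower members and 6 over all 32851 promoters of the table, whose quartiles were 2 and 16. The E-box letters CACGTG, which read the same on both strands and include a CG, occurred 2 times in the Sycp3 window and once each in those of Taf7l and Ipp, making 3 of the 25 higher members (12%) and, with 1 of the 4 lower members (25%), standing beside 6.02% of all promoters. These are matches of letters only.

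Apoa2, an apolipoprotein of high-density lipoprotein, ranged from 2.06 to 11 FPKM in the first group and from 0 to 0.289 FPKM in the second. Trim63, a ubiquitin ligase of muscle, ranged from 1.66 to 10.1 FPKM against 0 to 0.294 FPKM, and Gpnmb, a transmembrane glycoprotein of melanosomes and macrophages, from 0.863 to 2.83 FPKM against 0 to 0.0735 FPKM. Tbx4, a T-box gene of the hindlimb, ranged from 0.688 to 2.47 FPKM against 0 to 0.0887 FPKM. Other named members were likewise low in the second group. Gna15 (a G protein alpha subunit), Aqp3 (a water and glycerol channel), Pkp3 (a desmosome component) and Atg9b (an autophagy protein) had medians of 1.82, 2.36, 1.82 and 1.14 FPKM in the first group and no value above 0.254 FPKM in the second. Of the 38 higher members, 33 stayed under 1 FPKM in every library of the second. Ipp, a kelch protein gene first known from a transcript driven by a retroviral promoter in placenta, was one of the members well expressed in both groups, at 28.3 to 54.7 FPKM (median 34.6) against 7.14 to 9.30 FPKM (median 8.34). Fv1 (chromosome 4, 147868979 to 147870358), a restriction factor against retroviruses whose alleles are known to differ between mouse strains, and Jmjd7, a hydroxylase gene, were named after their values were seen. Fv1 ranged from 2.7 to 9.70 FPKM against 0.205 to 0.892 FPKM, and Jmjd7 from 10.2 to 16.9 FPKM against 2.46 to 4.10 FPKM.

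Of the 18 lower members, 11 were annotated as pseudogenes in GENCODE vM21 and 2 as protein coding, while 30 of the 38 higher members were protein coding and 1 was a pseudogene. Protein-coding genes made up 39.4% and pseudogenes 24.5% of all genes, and among the 17098 genes that reached a mean of 1 FPKM in at least 1 condition these shares were 75% and 16.1%. A930005H10Rik, a noncoding transcript on chromosome 3 (115881581 to 115888130, minus strand), was listed at 0 in all 11 libraries of the first group and ranged from 8.79 to 14 FPKM, with a median of 11.1 FPKM, in the second. Gm35082, Gm18363 and Gm5948 were also listed at 0 in all 11, against medians of 7.58, 7.22 and 5.30 FPKM. In all, 6 of the 18 lower members were listed at 0 in every library of the first group, and 4 of the 38 higher members in every library of the second. Gm8199, a pseudogene on the X chromosome, reached 0.146 FPKM in the first group against 6.97 to 10.8 FPKM in the second.

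Some members overlap or resemble other genes, and how far this bears on their values was not tested. All 4 higher members listed at 0 throughout the second group were overlapped on the opposite strand by a gene reaching 1 FPKM, namely Zcchc17 over Fabp3, Tmem59 over Tceanc2, Chpt1 over Sycp3 and Snhg16 over St6galnac2, as were 2 of the 6 lower members listed at 0 and 7 of the other 46 members. The libraries were made with a stranded kit, but the study names no strand setting for Cufflinks beyond its defaults, so whether fragments of these pairs were kept apart was not tested, and the zeros are given as listed. Of the 18 lower members 9 had another gene with at least 90% identity over at least 80% of the transcript, against 1 of the 38 higher members. As pseudogenes are copies of other genes, this contrast follows largely from the annotation, with 11 pseudogenes among the lower and 1 among the higher members. The share of all genes with such a copy was not counted. Eif5al3-ps (chromosome 5, 90132229 to 90132675), a processed pseudogene 97.2% identical over 97.1% of its length to the translation factor gene Eif5a, ranged from 138 to 184 FPKM in the second group and from 0.239 to 26 FPKM in the first. Eif5a itself had medians of 1409 and 1042 FPKM in the first and second group. Gm47761 on chromosome 10 shared a stretch of 36.0% of its length at 99.3% identity with Gm42047, so the values of these 2 members may not be independent.

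Every wt library was placed on the side of the mutant group whose nearest edge it lay closer to, taking the middle of the gap as the limit. Of the 26 wt libraries, 22 had most members on the side of the other mutant lines. The exceptions were replicates 3 and 4 at 96 h and replicates 3 and 4 at 120 h, all outside the time course, with 52, 52, 51 and 48 of the 56 members on the side of Del(CBS1-5) and Del(sub-TAD1). In these libraries all 18 lower members, and 34, 34, 33 and 30 of the 38 higher members, lay on that side. Replicates 1 and 2 at 96 and 120 h had none of the 56 there. These libraries are labelled wt like the other 22. Blastocyst origin is given for the 2 mutant lines only, and the labels give the same cell type and genotype for all 26 wt libraries and do not say which ES cells replicates 3 and 4 came from.

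**Figure D2:**
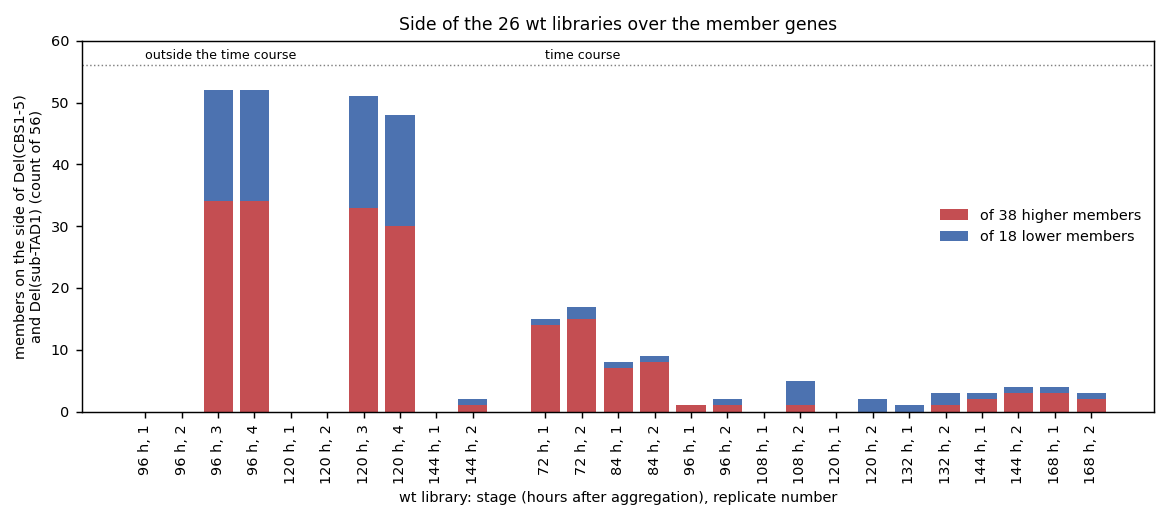
Number of members (vertical axis, of 56, dotted line) on the side of Del(CBS1-5) and Del(sub-TAD1) in each wt library (bars, by stage in hours and replicate number), split into higher and lower members. Replicates 3 and 4 at 96 and 120 h reach 48 to 52, the 72 h time-course libraries 15 and 17, and replicates 1 and 2 at 96 and 120 h 0.

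For Gm42047 the wt FPKM in replicates 1 to 4 was 0.0255, 0.0962, 83.3 and 61.6 (96 h) and 0.0558, 0.0898, 103 and 73.2 (120 h). For A930005H10Rik it was 9.88, 10.8, 0 and 0 (96 h) and 10.9, 11.1, 0 and 0 (120 h). Both genes split the 4 replicates into the same pairs without overlap. Jmjd7 repeated the split in a gene read well on both sides, with FPKM of 3.80, 3.50, 16.6 and 17.5 (96 h) and 3.77, 3.32, 14.3 and 14.7 (120 h). The FPKM of Fv1 was 0.464, 0.468, 4.47 and 5.85 (96 h) and 0.757, 0.673, 6.97 and 6.81 (120 h). The 4 libraries lay within the range of the 11 Del(CBS1-5) and Del(sub-TAD1) libraries, and not just past the limit, for 45, 39, 42 and 37 of the 56 members. Of the 38 higher members 14, and of the 18 lower members 14, had exactly these 4 of the 26 wt libraries on that side.

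Not every member followed this split. Ipp, at 7.66 and 7.67 FPKM in replicates 1 and 2 at 96 h, was at 7.85 and 9.17 FPKM in replicates 3 and 4, and all 26 wt libraries ranged from 6.19 to 10.2 FPKM, far from the 28.3 FPKM of the lowest Del(CBS1-5) or Del(sub-TAD1) library. A230056P14Rik, a noncoding transcript on chromosome 7, was listed at 0 in all 26 wt libraries and at 1.48 to 3.23 FPKM in the first mutant group. These 2 members had no wt library on the side of the first group. St6galnac2 was listed at 0 in replicates 3 and 4 at both stages, yet 12 time-course libraries were on the side of Del(CBS1-5) and Del(sub-TAD1). Sycp3 separated replicate 3, with 2.05 FPKM (96 h) and 1.36 FPKM (120 h), from replicate 4, listed at 0 at both stages. Fabp3 was at 9.17 and 6.53 FPKM in replicates 3 and 4 at 96 h and listed at 0 in both at 120 h, while the 4 mutant libraries of the first group at 120 h remained at 6.66 to 9.46 FPKM.

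**Figure D3:**
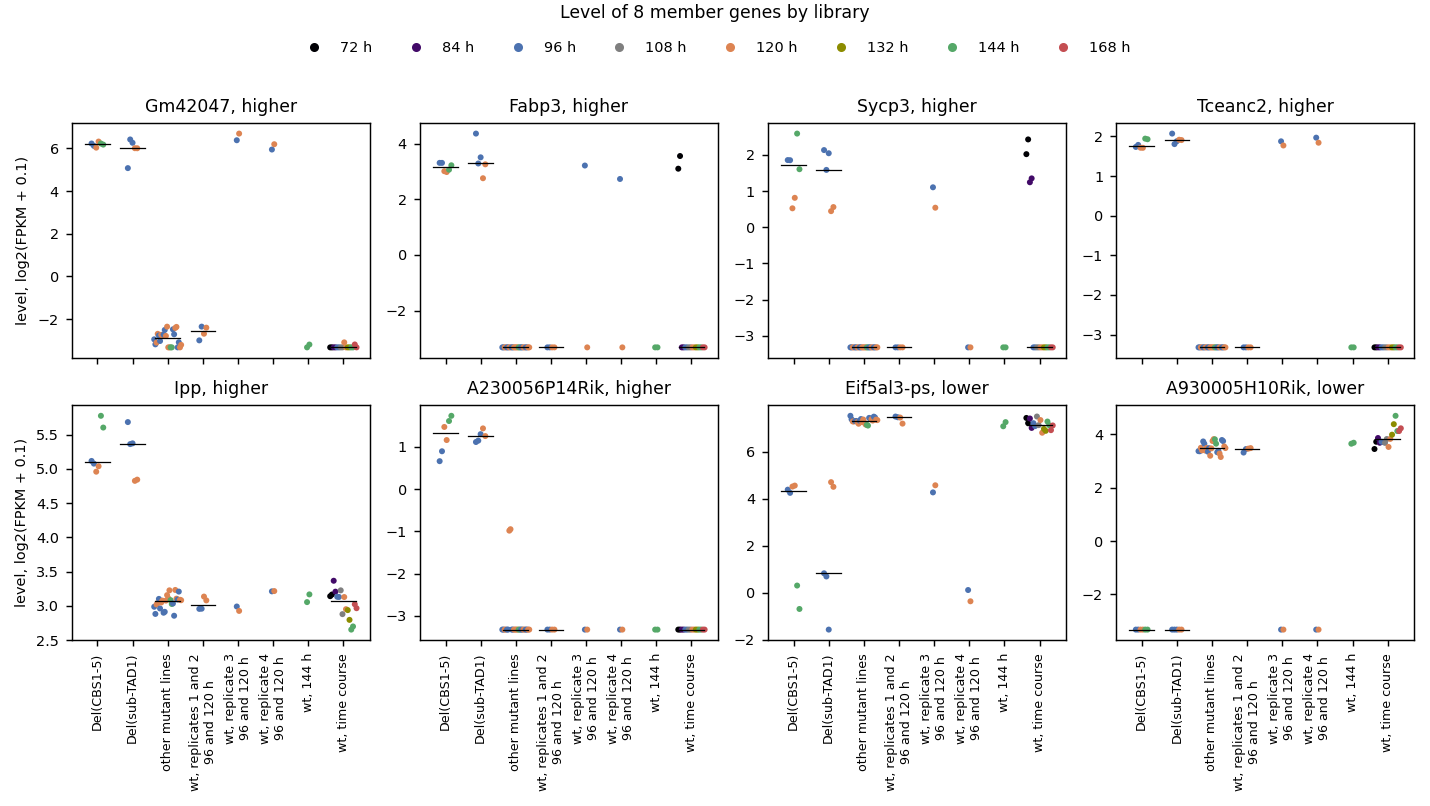
Level (vertical axis, log2(FPKM + 0.1)) of 8 members in each library, 1 point per library coloured by stage, with a line at the median for sets of more than 2 libraries. Gm42047, Tceanc2 and A930005H10Rik place wt replicates 3 and 4 with Del(CBS1-5) and Del(sub-TAD1), Ipp and A230056P14Rik place them with the other lines, and Eif5al3-ps has an intermediate level in some libraries.

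Markers of undifferentiated cells moved with some of the same libraries. All 5 markers of the pluripotent list (Pou5f1, Nanog, Zfp42, Esrrb and Klf4) had a higher median in the first group than in the second, with a median difference of 4.25 on the log2 scale against 0.03 over all genes past the filter, but none separated the groups without overlap, and Klf4 had nearly equal medians of 1.28 and 1.21 FPKM. Pou5f1, the central pluripotency factor, ranged from 7.38 to 207 FPKM (median 135) in the first group and from 0.612 to 44.0 FPKM (median 8.70) in the second. The 5 levels summed to 67.6 to 227 FPKM in the first group and 25.3 to 51.7 FPKM in the second at 96 h, to 10.5 to 155 and 2.45 to 18.2 FPKM at 120 h, and to 263 to 265 and 13.5 to 13.9 FPKM at 144 h. In the wt libraries the sum was 31.7, 33.3, 110 and 40.7 FPKM in replicates 1 to 4 at 96 h, and 10.01, 9.31, 86.9 and 21.4 FPKM at 120 h. Replicate 4 lay between replicate 3 and replicates 1 and 2 at both stages, nearer to the latter. Without Pou5f1 the other 4 markers summed to 4.49, 4.60, 28.7 and 8.50 FPKM in replicates 1 to 4 at 96 h. At 120 h they summed to 5.09, 4.37, 28.3 and 8.01 FPKM. In such pools a larger number of cells with these markers and more RNA per cell cannot be told apart. The study's single-cell map of wt stembryos at 96 and 120 h labels primordial germ cells among its populations. The part of undifferentiated or germ cells in the member levels was not tested.

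Of the 26 genes of a list of germline genes that DNA methylation keeps silent, 23 had a higher median in the first group and 2 a lower one. The share of all genes with a higher median was not counted, for this list or the others. The 17 list genes past the filter had a median difference of 2.90 on the log2 scale, beside 0.03 over all genes past the filter. Sycp3 and Taf7l were members, and Ddx4, Piwil2, Stk31 and Pramel1 separated the groups by less than the required gap. These 6 of 26 genes without overlap stand beside 389 of all 55052 genes, and the difference was not tested. The summed level in wt replicates 1 to 4 was 5.70, 4.97, 24.2 and 9.80 FPKM at 96 h and 20.2, 17.6, 22.02 and 22.8 FPKM at 120 h. Tdrkh, listed at 0 in some libraries, made up 17.0, 13.7, 0 and 17.4 FPKM of the 120 h sums, and the other 25 genes 3.27, 3.87, 22.02 and 5.37 FPKM, so that replicate 3 stood above the others at both stages. Ddx4, an RNA helicase of the germline, ranged from 0.534 to 4.11 FPKM against 0.0527 to 0.364 FPKM. Tex19.1 ranged from 1.19 to 38.7 FPKM (median 12.8) in the first group and from 0.0515 to 1.57 FPKM in the second, with overlap. Ddx4 and Tex19.1 were named after their values were seen. The list was chosen with earlier results of these data known.

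Other lists held no member. The 7 fibroblast markers were listed to look for feeder cells, although the study names only gelatin-coated dishes for its ES cells. They summed to 5.98 to 12.7 FPKM in the first group and 3.07 to 5.35 FPKM in the second at 96 h. The sums were 11.9 to 25.1 and 2.58 to 10.2 FPKM at 120 h, and 69.7 to 75 and 34.6 to 47.7 FPKM at 144 h. They did not overlap at any of these stages. Both groups were highest at 144 h, and the highest wt library reached 73.5 FPKM. Feeder cells and the stembryos' own cells therefore cannot be told apart by these markers. Of the 7 markers, 6 had a higher median in the first group, Col1a2 being lower at 2.09 against 2.7 FPKM, and none separated the groups. Dcn ranged from 0.163 to 2.11 FPKM in the first group and from 0 to 1.23 FPKM in the second. Lum ranged from 0.182 to 3.33 FPKM and from 0 to 1.26 FPKM, so both genes overlapped between the groups. The 7 markers summed to 3.60, 4.30, 4.84 and 7.39 FPKM in wt replicates 1 to 4 at 96 h. The part of feeder cells in the member levels was not tested. The sums of the trophectoderm and primitive endoderm lists overlapped between the groups, at 40.7 to 97.3 and 34.9 to 148 FPKM and at 13.8 to 29.6 and 9.48 to 31.2 FPKM. Cdx2, also a stembryo marker, reached 58.9 FPKM in the first group and 140 FPKM in the second. Of the 6 trophectoderm genes, 5 had a higher median in the first group. Their median difference was 1.20 on the log2 scale, beside 0.03 over all genes past the filter. Of the 5 primitive endoderm genes, 2 had a higher and 3 a lower median. Stembryo markers of axial progenitors and mesoderm were present in every library, at 355 to 818 and 316 to 800 FPKM. None of the 22 genes of the HoxD locus and its flanks, none of the 12 mitochondrially encoded mRNAs and none of the 44 imprinted genes was a member. Igf2r, Ndn and Grb10 of the imprinted list nonetheless separated the groups by less than the gap, Grb10, a growth factor receptor adaptor gene, with medians of 109 and 3.17 FPKM. Among 41 genes with known strain differences in structure or copy number, Wdfy1 and Trim12a separated the groups by less than the gap. Over all 55052 genes, 389 did not overlap between the groups, and neither the imprinted nor the strain list was tested against that share. Wdfy1, an endosomal signalling adaptor gene, was listed at 0 in wt replicates 3 and 4 at both stages, in Del(CBS1-5) at 144 h and in Del(sub-TAD1) replicate 1 at 96 h, was at 3.11 to 7.44 FPKM in the other Del(CBS1-5) and Del(sub-TAD1) libraries and at 8.08 to 11.9 FPKM in the other mutant lines.

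The members lay on 16 chromosomes and none was on the Y chromosome or in the mitochondrial genome. Chromosome 4 held 10 of the 56 (17.9%, 6.45% of the genes past the filter lying there), among them Fabp3, Tceanc2, Trim63, Aqp3, Ipp and Fv1, against 5.17% of all genes of the table, and chromosomes 7 and 10 held 7 each. Members were nonetheless far apart: only 2 pairs of neighbours lay within 1 Mb, Fv1 and Fbxo44 at 0.28 Mb and Gm5948 and Gm47761 at 0.55 Mb. The 4 members on chromosome 2, which carries HoxD, were Gm14226, Cyct, Jmjd7 and 1700007K13Rik, and apart from Cyct they lay 45.3 Mb or more from the cluster.

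The members closest to the limit differed little from the genes just outside it. Inside were, among others, Fbxo44 (1.01 on the log2 scale), Gm4800 (1.02), Spire2 (1.02) and Ephx1 (1.04), and outside were 3110045C21Rik (1.00 after rounding), Laptm5 (0.97), Serpina3m (0.97), A030001D20Rik (0.97) and 4933404O12Rik (0.94). Without any minimum gap, 389 genes did not overlap between the groups, 305 higher and 84 lower. The lowest fragment count on the high side of a member had a median of 37.4 for higher and 56 for lower members, and was 1.54 for Eps8l1, named for this after its values were seen, whose separation rests on few fragments.

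Levels also varied within the first group. Del(sub-TAD1) replicate 1 at 96 h was outside the range of the other 10 libraries for 22 of the 56 members and the highest of the 11 for 16 of the 38 higher members. Each of the other 10 was outside in the same way for 2 to 13 members. The share of all genes doing so was not counted. In Del(sub-TAD1) replicate 1 at 96 h the Fabp3 level was 20.5 FPKM, with 9.66 and 11.3 FPKM in the other replicates. Its Gna15 level was 5.10 FPKM, with 1.78 and 1.85 FPKM in the others. Gm42047 was lowest in this library. Gm14226, annotated as protein coding, was at 130 and 122 FPKM (96 h), 47.5 and 50.2 FPKM (120 h) and 1.08 and 1.01 FPKM (144 h) in Del(CBS1-5). In Del(sub-TAD1) its FPKM was 35.1, 53.4 and 55.7 (96 h) and 15.1 and 18.2 (120 h), and in wt replicates 3 and 4 it was 100.2 and 47.2 (96 h) and 28.5 and 10.8 (120 h). In each of these lines and replicates the level was lower at the later stage.

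The libraries also fell into 2 sets by the level of the mitochondrial gene mt-Co3, which no label names as a batch, at 994.9 to 1718 FPKM in 28 libraries and at most 2.76 FPKM in 33. The first mutant group held 6 libraries of the first set and 5 of the second, the other mutant lines 16 and 8. For 10 of the 56 members the first mutant group did not overlap between the sets, by more than 1 on the log2 scale for Eif5al3-ps, Gm47761 and Gm11868. The share of all genes doing so was not counted. In this group all replicates of a given line and stage fell into the same set. Within the group the sets therefore cannot be told apart from line and stage. Eif5al3-ps was at 18.9 to 26 FPKM in the first set and at 0.239 to 1.68 FPKM in the second, and wt replicate 3 (first set) was at 19.19 and 23.7 FPKM while wt replicate 4 (second set) was at 0.986 and 0.679 FPKM. The other mutant lines, at 146 to 184 and 138 to 180 FPKM, showed no such step. Depth, inferred from the confidence intervals in the files, was 14.2 to 36.8 M fragments per library.

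The 2 lines of the first group were set side by side at each shared stage. The rule used these same libraries, and 6 of the 54 members past the low-value filter were listed at 0 in all of them, so the following is a description and nothing is read from the counts. At 96 h A230056P14Rik was at 2.07, 2.12 and 2.36 FPKM in Del(sub-TAD1) and at 1.48 and 1.76 FPKM in Del(CBS1-5), and Ipp at 51.4, 41.1 and 41.4 FPKM and at 34.6 and 33.7 FPKM. For both genes all 3 Del(sub-TAD1) libraries lay above both Del(CBS1-5) libraries. Eif5al3-ps, at 1.68, 1.52 and 0.239 FPKM against 20.8 and 18.9 FPKM, and Gm11868, at 1.19, 0.765 and 0.615 FPKM against 4.19 and 4.07 FPKM, lay the other way, and these members also differed between the mt-Co3 sets, which at 96 h cannot be told apart from the lines. These 4 were the members past an adjusted p of 0.05 in limma at 96 h, beside 40.2% of all genes (20% higher and 20.2% lower), 2 of them with a replicate block (38.3% of all genes) and 7 members with only the compared libraries in the fit. At 120 h, where all 4 libraries were of the first set, 0 members passed in limma, 0 having an unadjusted p under 0.05, beside 8.83% of all genes (4.1% higher and 4.73% lower, 8.67% with a replicate block), and 3 with only the compared libraries. At 96 h the count was also 2 without Del(CBS1-5) replicate 1, without its replicate 2 or without Del(sub-TAD1) replicate 3.

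The wt libraries at 120 and 96 h outside the time course, 4 of each, were compared to ask whether members changed with stage. Fabp3 alone passed, 1 of 54 members (1.85%) beside 27.1% of all genes (15.6% higher and 11.5% lower at 120 h). The split between the replicates that marks the members enters their error here, 2 of the 54 were listed at 0 in all 8 libraries, and 17 had a mean under 1 FPKM at both stages, so the low count is no result about the members. Fabp3 fell by 3.15 ± 0.77 on the log2 scale (limma, adjusted p = 0.00175) through replicates 3 and 4, as replicates 1 and 2 were listed at 0 at both stages, and with only these 8 libraries in the fit 0 members passed. With the replicate number as a block 8 of 54 members passed beside 35.1% of all genes, 2 higher and 6 lower at 120 h. Besides Fabp3 these included Gm14226, lower at 120 h by a fall of 1.46 ± 0.14 in the blocked fit (limma, adjusted p = 7.34e-10), and, named after their values were seen, Gm47761 and Gm8113, higher at 120 h, and Alox5, Gm18363 and Gm11868, lower. The standard error of Gm14226 was 1.31 without the block, where only Fabp3 passed. Gm14226 was listed at 0 in 18 wt libraries and reached at most 0.189 FPKM in the other mutant lines. These libraries enter its blocked standard error, which can thus be smaller than the compared libraries alone would give. The pairing was also read from the data. Without replicate 3 at 120 h 2 members passed, and without replicates 3 and 4 at both stages 5.

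In the wt time course, 10 of 54 members (18.5%) differed between the 8 stages, beside 61.8% of all genes (limma F test over stages, adjusted p under 0.05), all 10 of them higher members (62.5% of all genes with a replicate block, which left 10 members). Of the 54, 3 were listed at 0 in all 16 libraries and 24 had a mean under 1 FPKM at every stage, having passed the filter through other libraries, so the share is no result about the members. With only the 16 libraries in the fit 20 members passed. The fit without time-course replicate 1 called 6 members and without replicate 2 called 4. St6galnac2 (adjusted p = 3.03e-09 in limma) was at 1.49 and 1.99 FPKM at 72 h and listed at 0 in both libraries at 120 h. It did not fall steadily, as 12 of the 16 libraries were on the side of Del(CBS1-5) and Del(sub-TAD1). Its difference of 168 h from 72 h was -2.16 on the log2 scale. Sycp3 (adjusted p = 7.80e-08 in limma) was at 3.96 and 5.29 FPKM at 72 h, 2.27 and 2.45 FPKM at 84 h and listed at 0 from 96 h on. Fabp3 (adjusted p = 7.17e-06 in limma) was at 8.47 and 11.7 FPKM at 72 h and listed at 0 in all 14 later libraries. These 3 genes were therefore within the range of Del(CBS1-5) and Del(sub-TAD1) in the wt line at 72 h. Gna15, Atg9b, Alox5, Ptk2b and 1700007K13Rik also had a lower mean at 168 h than at 72 h, Ptk2b being named after its values were seen. Ipp moved little, between 6.19 and 10.2 FPKM (adjusted p = 0.000196 in limma), and Ephx1, a microsomal epoxide hydrolase gene, was highest at 168 h, at 2.65 and 2.14 FPKM.

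**Figure D4:**
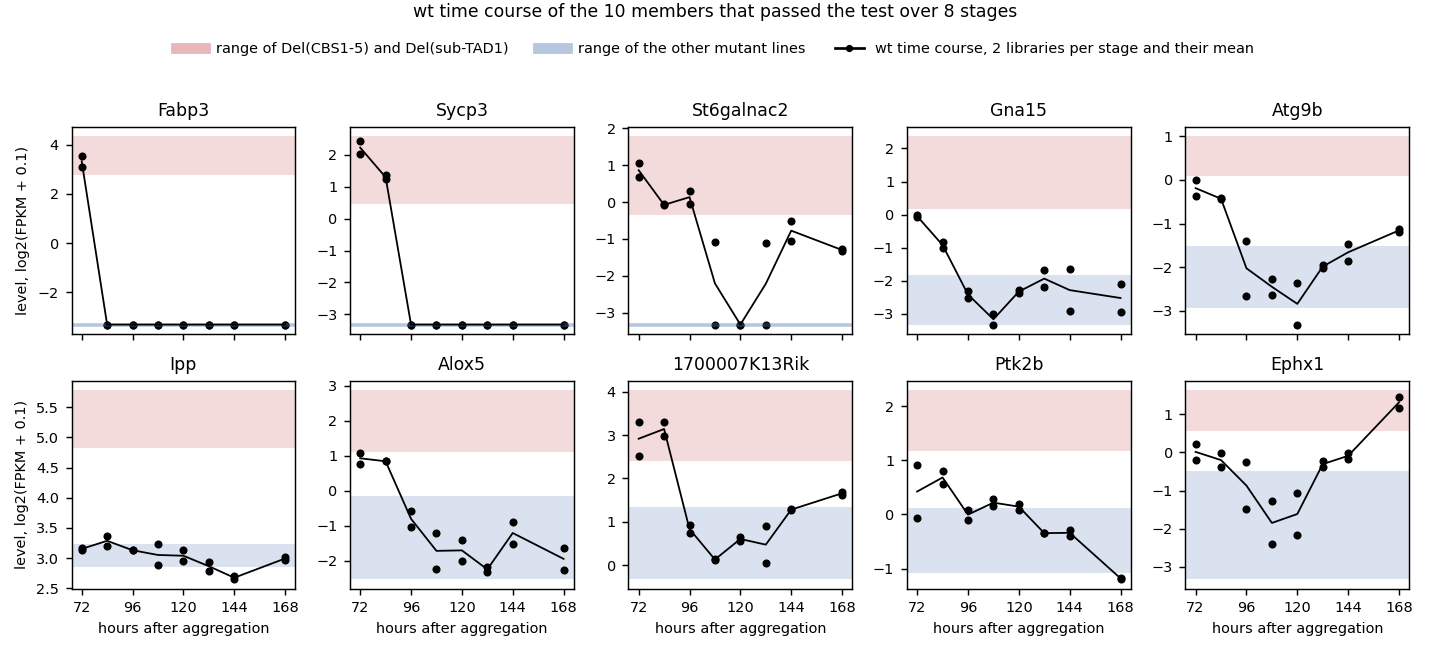
Level (vertical axis, log2(FPKM + 0.1)) against stage (hours after aggregation) in the wt time course for the 10 members that passed, with 2 points per stage, a line through their mean, and bands for the ranges of Del(CBS1-5) and Del(sub-TAD1) and of the other mutant lines. Sycp3 and Fabp3 lie in the upper band at 72 h and at 0 from 96 h, Ephx1 enters it at 168 h, and Ipp stays with the other lines.

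At 72 h, 12 of the 38 higher members had both wt libraries on the side of Del(CBS1-5) and Del(sub-TAD1) and 21 had neither. Among the 12 were Fabp3, Sycp3, St6galnac2, Gna15, Pkp3, Atg9b, Gm45847, Alox5, Dennd1c, 1700007K13Rik and Spire2. Over the time course the number of higher members on that side went from 14 and 15 at 72 h to 7 and 8 at 84 h, 1 and 1 at 96 h and 0 to 3 at every later stage. Pou5f1 was at 1124 and 1129 FPKM in the same 72 h libraries, and at 34.7 and 63.3 FPKM at 96 h. Nanog was at 65.8 to 82.5 FPKM at 72 h, above its highest value of 35.4 FPKM in Del(CBS1-5) and Del(sub-TAD1). Zfp42 and Esrrb were at 3.26 to 3.43 and 1.88 to 3.19 FPKM at 72 h, under their medians of 11.7 and 10.8 FPKM in these 2 lines. Klf4, at 1.12 to 1.28 FPKM, lay within its range of 0.699 to 2.07 FPKM there. Of the lower members none passed the test over stages, and 16 of 18 had neither 72 h library on that side.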

How the data were processed

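RNA-seq was analysed for 61 libraries of pooled stembryos, grouped by the submitters' titles and genotypes. The authors deposited FPKM values per gene, which they made with cutadapt 1.16, STAR 2.7.7a on mm10 with an Ensembl-based annotation, a filter for uniquely mapped reads and Cufflinks 2.2.1 with default parameters. FPKM of rows with the same gene identifier were summed and transformed as log2(FPKM + 0.1). The members were taken by the rule given in the report, and the members and gene lists were chosen with earlier results of these data known. Fragments behind a value, and depth, were inferred from the width of Cufflinks' confidence intervals and are approximate; they cover counting error only.

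Comparisons were fitted with limma 3.58.1 in R 4.3.3 over all 61 libraries, 1 coefficient per condition, on the 17098 genes with a mean of at least 1 FPKM in at least 1 condition, with Benjamini-Hochberg adjustment over all of them. Contrasts among wt libraries compared values that the rule did not use. Their error and the low-value filter still drew on the mutant libraries of the rule. Contrasts between Del(sub-TAD1) and Del(CBS1-5) compared values of the rule and are given as a description. This log-scale understates folds of low genes. Scripts were tested on simulated data. The labels do not say that replicates were separate cultures, so p-values measure the spread between these samples. That spread was pooled for each gene over all 61 libraries, including those outside the comparison. Where a gene was at background level in many of these, its standard error can be smaller than the compared libraries alone would give. Small p-values of such genes, Fabp3, Sycp3, St6galnac2 and Gm14226 among them, rest on this pooling. Same-numbered wt libraries at 96 and 120 h deviated together (correlations 0.56, 0.57, 0.58 and 0.89 for replicates 1 to 4), a pairing that comes from the data and not from the labels, so blocked values are given. Named genes were the 12 members with the widest gap per direction and 5 with Gm or Rik symbols, members on lists, those with wt libraries on both sides, those nearest the limit and the 5 smallest adjusted p per test, except 1 member that is not reported here. Alternatives were another pseudocount, filter, gap, upper-quartile scaling, block, subset of libraries and each library left out. Nearest copies were found with blastn 2.17.0 among GENCODE vM21 transcripts and promoters are from RefSeq.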

Additional observations from a re-analysis of the deposited data

Results flagged for a closer look

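In groups of 4 libraries, 4 of 77 tested sets over 41 genes held a library far from the other 3. Chance sets apart about 1 in 20 sets of normally distributed values. That rate does not carry over to sets with libraries listed at 0, so nothing is read from the count. Sycp3 was at 2.05 FPKM in wt replicate 3 at 96 h and at 1.36 FPKM in wt replicate 3 at 120 h, with the other 3 libraries listed at 0 in both sets. Taf7l was at 0.981 FPKM in wt replicate 3 at 120 h, with the others between 0.0834 and 0.140 FPKM. Ipp was at 9.17 FPKM in wt replicate 4 at 96 h, with the others between 7.66 and 7.85 FPKM.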

How the results depend on the processing

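The number of members depended on the rule's settings, given here as all, higher and lower members. A pseudocount of 1 FPKM gave 20, 10 and 10, a gap of more than 2 gave 21, 11 and 10, and a gap of more than 0.5 gave 121, 89 and 32. With Del(CBS1-5) alone as the first group they were 283, 253 and 30, and with Del(sub-TAD1) alone 103, 73 and 30. Libraries at 96 h alone gave 229, 193 and 36 and those at 120 h alone 157, 116 and 41. Within the mt-Co3 sets, an alternative chosen after seeing the data, they were 126, 74 and 52 (first set) and 264, 163 and 101 (second set). These subsets have fewer libraries to separate. Upper-quartile scaling gave 51, 33 and 18, 50 genes being shared. Leaving out each library in turn gave 56 to 63, 38 to 45 and 18 to 19. The wt libraries on the side of the other lines numbered 22 under every alternative for which they were counted (not the mt-Co3 sets) except Del(CBS1-5) alone, where they were 24 and only wt replicate 3 at 96 and 120 h lay on the other side.

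With only the compared libraries in the fit, the time course called 20 members, wt 120 h against 96 h 0, and Del(sub-TAD1) against Del(CBS1-5) 7 at 96 h and 3 at 120 h. A pseudocount of 1 FPKM gave 8 at 96 h. The replicate block gave 8 members for wt 120 h against 96 h and 2 for the lines at 96 h, and it moved neither of the other 2 counts by over 1.5 times. At 96 h the lines share only replicate numbers, with correlations of -0.01 and -0.03 between the deviations of same-numbered libraries. Leaving out libraries gave 4 to 6, 1 to 2, 2 to 4 and 0 to 0 members in these 4 tests, and wt replicates 3 and 4 left out together, chosen after seeing the data, gave 5 in the second. The cause was not tested. No tested gene reversed direction under the alternatives. Depth limits the low members most, since FPKM near 0 rest on few fragments.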
